A study of Caenorhabditis elegans with 6 samples.

Results

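The genes described here encode the TOR complexes, a pair of translation initiation factors of the cap-binding complex, a catalytic subunit of the AMP-activated kinase and the transcription factor PHA-4. They are *let-363*, *daf-15*, *rict-1*, *ife-3*, *ifg-1*, *aak-1* and *pha-4*. For each gene 1 probe set was found, which gives 7 of the 29317 probe sets on the array. The probe sets were found by gene symbol in 2 tables of the authors, one for baicalein and DMSO and one for DMSO and water. These tables list only probe sets that passed the authors' own test on this experiment, and they give a name to 4957 probe sets. A gene, or a further probe set of it, could therefore be found only if it had passed that test. The gene *pha-4* was in both tables, while the other members were in the table of baicalein against DMSO alone. A count of members that differed between baicalein and DMSO is for this reason no independent evidence on the pathway.

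The experiment asked whether baicalein, a flavone, changes gene expression in the nematode *C. elegans*, with a solvent group to set apart what DMSO does on its own. Whole worms of the wild-type strain N2 were treated in liquid S medium for 48 h at 20 °C, starting 16 to 18 h after hatching, and the labels call all of them young adults of 3 days. The groups were water alone, 0.4% DMSO, and 100 µM baicalein, which was given in DMSO that the methods hold at the same 0.4%, all in medium with *E. coli*, and RNA of each sample came from pooled worms. Each of the 3 groups had 2 arrays (Affymetrix *C. elegans* Gene 1.1 ST), numbered as independent trials 1 and 2, and the methods speak of samples in triplicate.

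TOR is a protein kinase that senses amino acids, energy and growth signals. In TOR complex 1 it is bound by Raptor and promotes protein synthesis, in part through the factors that load messenger RNA onto the ribosome at its cap, and in TOR complex 2 it is bound by Rictor. AMPK is active when energy is low and restrains TOR complex 1 in many animals, and in *C. elegans* lower TOR activity, lower eIF4G and the factor PHA-4 have all been linked to lifespan. An array of messenger RNA reads none of these activities, only the amount of transcript.

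Values are log2 expression after RMA, a method that combines the probes of a set into 1 value for each array, and a log2 difference of 1 is a 2-fold change. The median of all values was 1.51, array medians lay between 1.42 and 1.59, and upper quartiles lay between 2.46 on the second baicalein array and 3.26. The named marker genes of stage and germ line set the groups far apart. Like the 7 genes, they were found only through the authors' tables. All named oocyte, germline, sperm, yolk and eggshell genes were in that of baicalein against DMSO. Of the 10 molting genes 8 were in that of DMSO against water. Their differences in those comparisons are therefore no independent evidence. The genes *cpg-1*, *cpg-2* and *cbd-1* stand in both the germline and the yolk list. The summed linear level of 21 named of 28 oocyte and germline markers was 112 to 159 on the water arrays, 5199 to 5463 on the DMSO arrays and 1804 to 1807 on the baicalein arrays, and on both water arrays 5 of them, *oma-1*, *glh-2*, *him-3*, *htp-3* and *egg-2*, lay at or under the median of all values. The sum of 7 of 17 yolk and eggshell genes, which are made by adult hermaphrodites, was 26.1 to 40.4 in water, 3908 to 4117 in DMSO and 2879 to 3040 in baicalein, whereas the sum of 10 of 19 molting genes, which mark larvae, was 1172 to 1237 in water, 139 to 145 in DMSO and 36.5 to 42.7 in baicalein. Of the molting genes 6 lay at or under the median of all values on both DMSO arrays, only *ptr-2* and *nhr-23* were lower in baicalein than in DMSO, and the median log2 difference of the list was 0.19 there. The sum of 11 of 34 sperm genes was 30.96 to 39.4 in water, 479 to 521 in DMSO and 1364 to 1502 in baicalein. Of these 8 were higher in baicalein than in DMSO and 1, *spe-44*, was lower. The shares were 8.84% and 37.9% of the genes named in the table of baicalein against DMSO. In the water group the named germline, yolk and molting markers go against the label of young adults. Markers of body tissues were lowest in DMSO as sums, with 7 of 14 intestine genes at 988 to 1090 in water, 497 to 605 in DMSO and 992 to 1092 in baicalein, and 6 of 15 neuron genes at 1025 to 1053, 539 to 541 and 781 to 840. The same held for 9 of 13 body wall muscle genes (2108 to 2110, 1856 to 1877 and 2614 to 2754) and 6 of 12 hypodermis genes (1702 to 2005, 662 to 709 and 1019 to 1180). Bright genes weigh most in such sums, and *cpr-1* (intestine), *tni-3* (muscle) and *col-119* (hypodermis) were higher in DMSO than in water. In baicalein 4 of the 7 intestine genes were lower than in water and 2 were higher, *mtl-2* by 6.04-fold, beside 16.5% and 17% of all named genes. In whole worms, fewer cells of a type and less transcript per cell cannot be told apart, and the part of stage, germ line and body tissues in the differences below was not tested.

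Of the 7 genes, 5 were lower in baicalein than in DMSO and none was higher. The 5 were *daf-15* and *rict-1*, the partners of TOR in its complexes, *ife-3* and *ifg-1* of the cap-binding complex, and the AMPK gene *aak-1*, with falls of 1.85-fold to 3.17-fold. The gene of the TOR kinase itself, *let-363*, and *pha-4* did not pass the test. Over all probe sets 7.03% were lower and 1.73% were higher in this comparison, and among the genes named in the table of baicalein against DMSO 37.9% were lower and 8.84% were higher. Since the genes could only be found through that table, nothing is read from their count. The median log2 difference was -1.22 over the 7 genes, 0.05 over all probe sets and -0.43 over the genes named in that table.

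**Figure D1:**
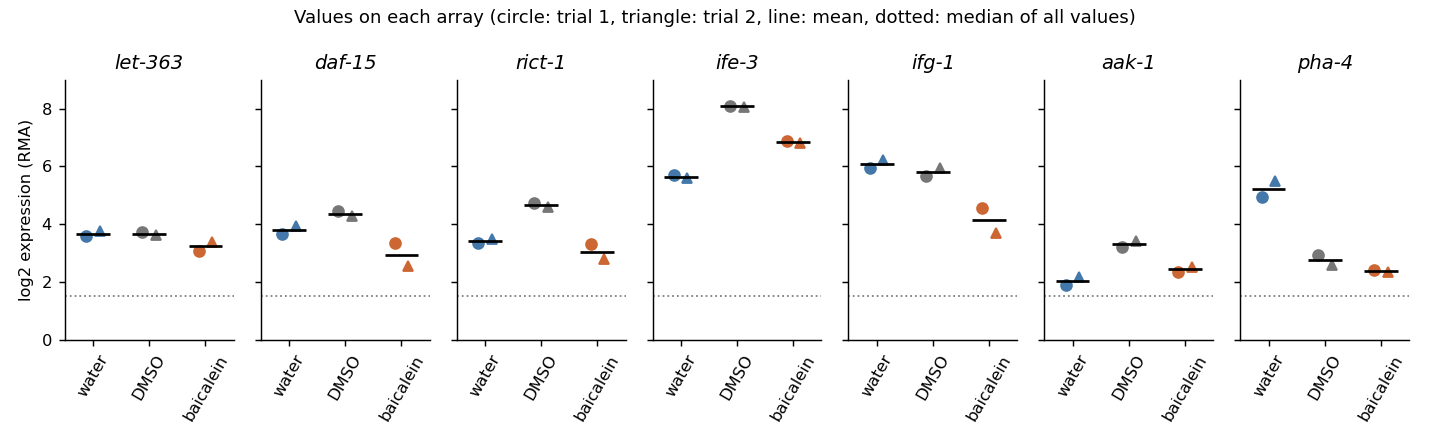
Log2 expression (vertical axis) of the 7 genes on each of the 6 arrays, by group (horizontal axis). Circles are trial 1, triangles are trial 2, black lines are group means and the dotted line is the median of all values, 1.51. The DMSO arrays are the highest for *daf-15*, *rict-1*, *ife-3* and *aak-1*, and the water arrays are the highest for *pha-4*, where both water values lie above 4.9 and no other value is above 2.94.

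The gene *let-363*, which encodes the TOR kinase (probe set 18450980), had log2 values of 3.59 and 3.75 in water, 3.73 and 3.62 in DMSO, and 3.09 and 3.38 in baicalein. The baicalein arrays were the lowest and the water and DMSO arrays overlapped. The mean was 3.23 ± 0.20 (SD, n = 2) in baicalein and 3.67 ± 0.08 in DMSO, a log2 difference of -0.44 with a standard error of 0.18 and an adjusted p of 0.241 (limma). The 95% interval ran from -0.88 to 0.0022, and the sign of the difference turned with the scaling, to 0.11 after quantile normalization and 0.04 after cyclic loess. Between DMSO and water *let-363* had a log2 difference of 0.0025 with an interval from -0.44 to 0.44, whose sign was also turned by cyclic loess and by leaving out single arrays. Between baicalein and water the difference was -0.44 (adjusted p = 0.140, limma), and it was 0.29 after quantile normalization and 0.03 after cyclic loess. No comparison of *let-363* passed the test.

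The gene *daf-15* encodes Raptor, the scaffold of TOR complex 1 (probe set 18533687). Its values were 3.64 and 3.92 in water, 4.44 and 4.30 in DMSO, and 3.34 and 2.56 in baicalein. The 3 groups did not overlap, and the baicalein arrays lay 0.77 apart, more than those of either other group. Against DMSO, *daf-15* was 2.67-fold lower in baicalein, at 2.95 ± 0.55 against 4.37 ± 0.10 (log2 difference -1.42, standard error 0.28, adjusted p = 0.0294, limma). In DMSO it differed from water by 0.58 (adjusted p = 0.180, limma), with an interval from -0.09 to 1.26. In baicalein it differed from water by -0.83 (adjusted p = 0.0804, limma), with an interval, not adjusted for the number of probe sets, from -1.50 to -0.16. In order of level DMSO came first, then water and then baicalein, and only the ends of that order were separated by the test. Without either baicalein array the difference of DMSO from water passed (adjusted p = 0.0466, limma), and without the first baicalein array that of baicalein from water did (-1.22, adjusted p = 0.0096, limma). In these fits 1 baicalein array is left, and the spread comes from the water and DMSO arrays alone.

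The gene *rict-1* encodes Rictor, the partner of TOR in complex 2 (probe set 18498349), which in *C. elegans* acts on fat storage, growth and lifespan. Its values were 3.35 and 3.48 in water, 4.75 and 4.58 in DMSO, and 3.31 and 2.78 in baicalein. Both DMSO arrays lay more than 1 log2 unit above the others, and the higher baicalein array lay just below the lower water array. In baicalein *rict-1* was 3.06-fold lower than in DMSO (log2 difference -1.62, standard error 0.22, adjusted p = 0.0113, limma), and in DMSO it was 2.38-fold higher than in water (1.25, standard error 0.22, adjusted p = 0.0068, limma). The second call was lost with an ordinary analysis of variance, the test that the methods name, after adjustment (adjusted p = 0.0707). It was also lost without the first water array or the first DMSO array, which leaves 1 array in that group. Between baicalein and water the difference was -0.36, with an interval from -0.90 to 0.17, and its sign turned to 0.34 after quantile normalization and 0.07 after cyclic loess. Thus DMSO stood apart from both other groups, which were not separated from each other.

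The messenger RNA cap is bound by eIF4E, for which *C. elegans* has several genes, and *ife-3* (probe set 18582052) encodes one that acts in the germ line and the embryo. Its values were 5.71 and 5.59 in water, 8.09 and 8.06 in DMSO, and 6.88 and 6.82 in baicalein. The arrays of each group lay within 0.12 of each other, and the groups were far apart. Baicalein was 2.34-fold below DMSO (log2 difference -1.22, standard error 0.16, adjusted p = 0.0101, limma), DMSO was 5.38-fold above water (2.43, adjusted p = 0.000122, limma), and baicalein was 2.30-fold above water (1.20, adjusted p = 0.00295, limma). Among the 7 genes, *ife-3* was the only one for which all 3 comparisons passed. Its order of groups, DMSO then baicalein then water, was also that of the summed oocyte and germline markers, and their part in its differences was not tested.

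The scaffold eIF4G, which joins the cap-binding factor to the ribosome, is encoded by *ifg-1* (probe set 18486761). Its values were 5.93 and 6.23 in water, 5.67 and 5.93 in DMSO, and 4.57 and 3.71 in baicalein. Water and DMSO just overlapped, and both baicalein arrays lay more than 1 log2 unit below them, 0.86 apart from each other. In baicalein *ifg-1* was 3.17-fold lower than in DMSO, at 4.14 ± 0.61 against 5.80 ± 0.19 (log2 difference -1.67, standard error 0.31, adjusted p = 0.0238, limma), and 3.85-fold lower than in water (-1.94, adjusted p = 0.00567, limma). The difference of DMSO from water was -0.28, with an interval from -1.01 to 0.46 (adjusted p = 0.545, limma). Of the 5 genes that were lower in baicalein than in DMSO, *ifg-1* was the only one that also passed the test as lower than in water. The baicalein arrays of *daf-15* and *rict-1* lay below their water arrays too, without passing. The order of its groups was not that of the oocyte and germline markers, which were lowest in water, and the part of stage and germ line in its differences was not tested.

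The gene *aak-1* encodes a catalytic alpha subunit of AMPK (probe set 18526159), and *C. elegans* has a second, *aak-2*. Its values were 1.88 and 2.19 in water, 3.20 and 3.43 in DMSO, and 2.34 and 2.53 in baicalein. The groups did not overlap, and the water values were little above the median of all values. In baicalein *aak-1* was 1.85-fold lower than in DMSO (log2 difference -0.88, standard error 0.20, adjusted p = 0.0426, limma), the smallest of the 5 falls, and in DMSO it was 2.43-fold higher than in water (1.28, adjusted p = 0.00365, limma). Baicalein and water differed by 0.40 with an interval from -0.07 to 0.87 (adjusted p = 0.192, limma), a difference that did pass after quantile normalization (adjusted p = 0.0483) and cyclic loess (adjusted p = 0.0238). The order of the groups was again DMSO, baicalein and water.

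The gene *pha-4* encodes the FoxA factor that specifies the pharynx and is needed for the longer life of diet-restricted worms (probe set 18569391). Its values were 4.93 and 5.49 in water, 2.94 and 2.60 in DMSO, and 2.40 and 2.36 in baicalein. Water was high and the other groups were low without overlap. DMSO was 5.43-fold below water (log2 difference -2.44, standard error 0.24, adjusted p = 0.000586, limma), and baicalein was 7.11-fold below water (-2.83, adjusted p = 0.000406, limma). Between baicalein and DMSO the difference was -0.39 with an interval from -0.97 to 0.19 (adjusted p = 0.452, limma), and it was 0.08, of the other sign, after cyclic loess. Since 8 of the 10 molting genes were named in the table of DMSO against water, their count in this comparison is no independent evidence. Of the 10, 9 were likewise lower in DMSO than in water, beside 16% of all named genes. The exception was *ptr-2*, which was higher (adjusted p = 0.00894, limma), and the part of the molting genes in the difference of *pha-4* was not tested.

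**Figure D2:**
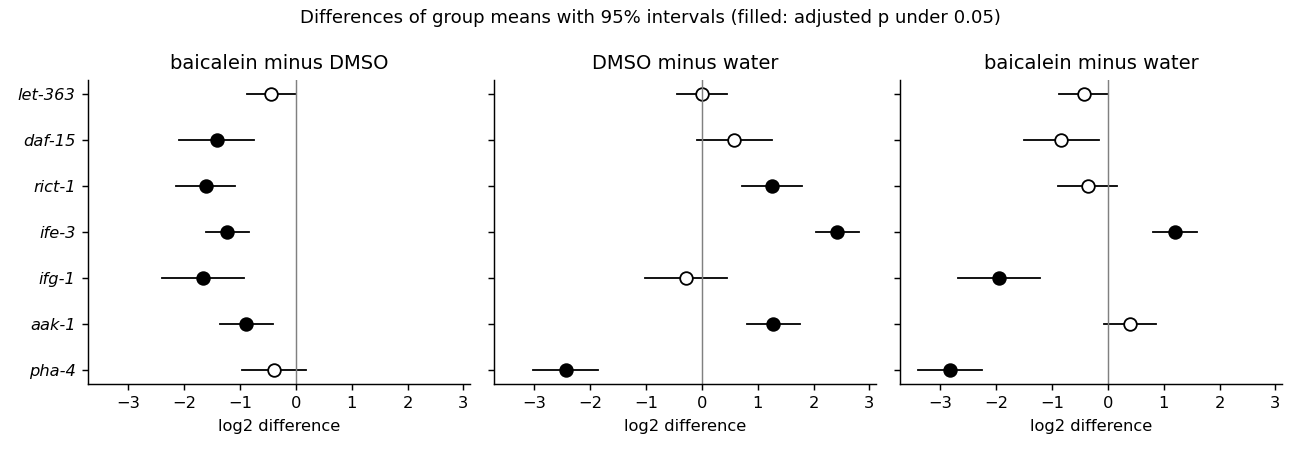
Differences of group means on the log2 scale (horizontal axis) for the 7 genes (vertical axis) in each comparison, with 95% intervals from limma. Filled circles had an adjusted p under 0.05. The 5 filled circles of baicalein minus DMSO run from -1.67 to -0.88, while *let-363* and *pha-4*, whose signs turned under cyclic loess, are unfilled.

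Set side by side, the comparisons share arrays, since the DMSO arrays stand in both contrasts that involve the solvent, and a high DMSO value lowers one and raises the other. Between DMSO and water 3 of the 7 genes were higher, *rict-1*, *ife-3* and *aak-1*, and 1 was lower, *pha-4*. Over all probe sets 10.9% were higher and 16.7% were lower. Of the genes called between DMSO and water, only *pha-4* is in the authors' table of that comparison, for a reason that was not tested. Between baicalein and water 1 was higher, *ife-3*, and 2 were lower, *ifg-1* and *pha-4*, against 6.79% and 15.4% of all probe sets. Of the 5 genes below DMSO in baicalein, 3 had thus been above water in DMSO. With 2 arrays in each group an exact two-sided permutation test cannot go below 0.333 for a single gene, so the tests rest on limma, which borrows the spread from all probe sets. The labels and methods call the trials and samples independent without saying that they were separate cultures, and if they were not, the p-values cover the technical spread alone.

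The calls against DMSO changed when single arrays were left out, where the group of the lost array keeps 1 array that is assumed to vary like those of the other groups. Without either DMSO array the spread comes from the other groups alone, so no call is read there, though the tally below counts these fits as settings. The 5 genes that had been lower still had log2 differences between -1.80 and -0.77. For this comparison a fit without either water array is the same as a fit of the compared groups' arrays alone, since a single water array adds no spread. Only *rict-1* and *ife-3* were called there, where 3.57% of all probe sets were lower, against 7.03% with all arrays. The tally below, and the like tallies for other genes, count that fit more than once. They also count the adjusted analysis of variance, which called 1 probe set lower in all, so a miss there says little about a single gene. Of 15 other settings, one of them the methods' test without adjustment, *ife-3* and *rict-1* passed in 12 each, *ifg-1* in 9, *daf-15* in 8 and *aak-1* in 4, and no setting turned the sign of these 5.

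**Figure D3:**
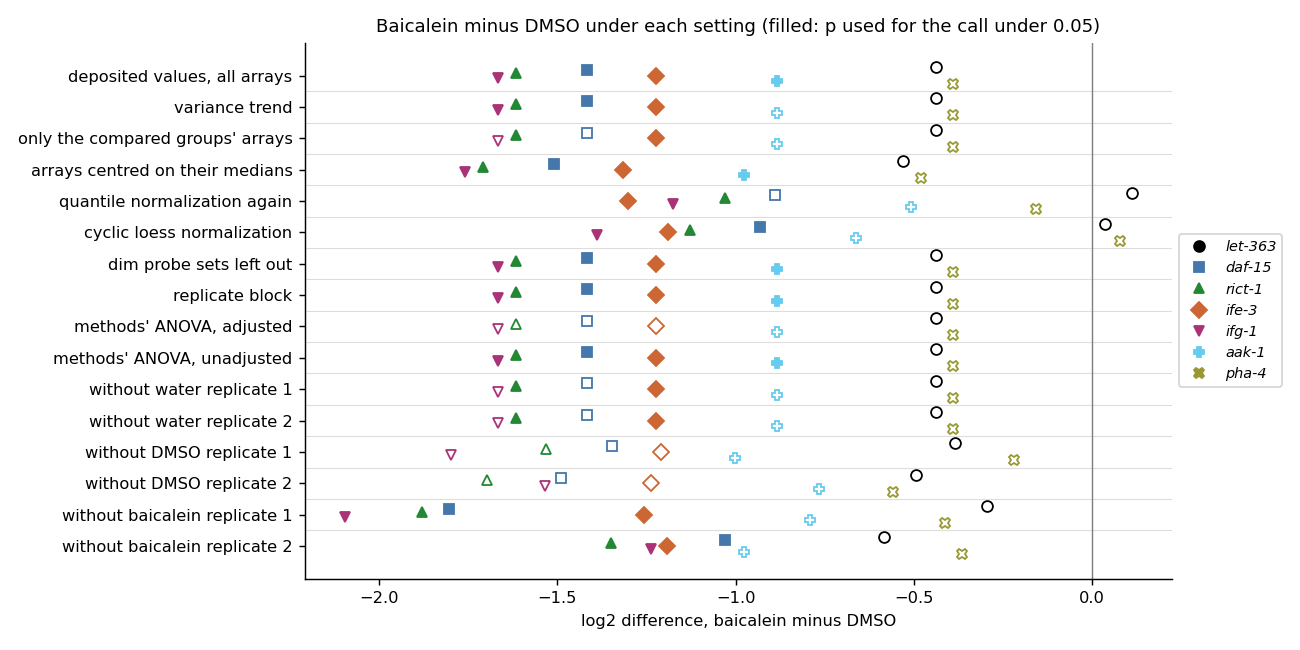
Log2 difference of baicalein from DMSO (horizontal axis) for the 7 genes under each processing setting (vertical axis). Filled symbols had a p under 0.05 as used for that setting's call. The differences of *ife-3*, *rict-1*, *ifg-1*, *daf-15* and *aak-1* stay below 0 on every line, and those of *let-363* (quantile and cyclic loess) and *pha-4* (cyclic loess) cross it.

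Other genes of these pathways were read from lists of TOR, AMPK, initiation, autophagy and foregut genes. Beside the 7 genes, these lists hold 148 genes, of which 25 had a named probe set, 23 of them through the table of baicalein against DMSO. Of the 25, 12 were lower in baicalein than in DMSO, 1 was higher and 12 did not pass, with a median log2 difference of -0.84. The shares, 48% lower and 4% higher, stand beside 37.9% and 8.84% of the genes named in that table. Between DMSO and water 11 of the 25 were higher and 5 were lower (44% and 20%), beside 38.9% and 14% of the genes named in that table. Between baicalein and water 2 were higher and 8 were lower (8% and 32%), beside 18.3% and 15.4%. The count of 12 below DMSO was 7 without either water array, where 3.57% of all probe sets were lower, against 7.03% with all arrays. Counts below DMSO and against water also changed when an array of a compared group was left out. Such fits keep 1 array in that group, and their counts are not read.

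Among the TOR complexes, the remaining named gene was *clk-2*, the homolog of TEL2, which in yeast and mammals stabilises TOR and related kinases. Its values were 1.78 and 1.75 in water, 3.60 and 3.85 in DMSO, and 2.14 and 2.07 in baicalein, and it was 3.08-fold lower in baicalein than in DMSO (log2 difference -1.62, adjusted p = 0.00688, limma). Its DMSO arrays stood above all others, as those of *rict-1* did. Upstream of TOR, *ruvb-1*, which encodes a RuvB-like ATPase, was lower in baicalein (-1.23, adjusted p = 0.0413, limma), a call made in 5 of 15 other settings, with a difference of -0.62 after quantile normalization (adjusted p = 0.0970). The sestrin gene *sesn-1*, whose product restrains TOR complex 1 in mammals, had a difference of 0.10 (adjusted p = 0.914, limma), with baicalein values of 3.94 and 2.89 on either side of the DMSO values of 3.42 and 3.19, and its sign turned when single arrays were left out. Downstream of TOR only *tpa-1*, a protein kinase C gene, was named, with a difference of 0.37 that did not pass.

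The cap-binding list had 7 of 17 genes named, *ife-3* and *ifg-1* included, and 6 of the 7 were lower in baicalein than in DMSO, beside 7.03% of all probe sets and 37.9% of the genes named in that table, through which all 7 were found. Between DMSO and water 4 of the 7 were higher, beside 38.9% of the genes named in that table. Between baicalein and water 2 were higher and 2 were lower, beside 18.3% and 15.4% of those genes. The other genes below DMSO were *ifet-1*, *spn-4*, *larp-1* and *ncbp-1*. The gene *ifet-1*, which encodes an eIF4E-binding repressor of translation in the germ line, had values of 6.29 and 6.53 in DMSO and 4.86 and 3.47 in baicalein (log2 difference -2.24, adjusted p = 0.0257, limma). The RNA-binding factor gene *spn-4*, which acts in the early embryo, was at 6.84 and 6.88 in DMSO and 5.18 and 4.49 in baicalein (-2.02, adjusted p = 0.0266, limma). The DMSO arrays of both genes lay above the baicalein arrays. In water *ifet-1* was at 4.53 and 4.62, within the range of baicalein, and *spn-4* was at 3.69 and 2.63, below it, so that *spn-4* was higher in baicalein than in water (1.68, adjusted p = 0.0237, limma). Both are genes of the germ line and embryo rather than general initiation factors. The La-related gene *larp-1* fell by 1.75 (adjusted p = 0.0301, limma) and *ncbp-1*, for the nuclear cap-binding protein, fell by 1.53 (adjusted p = 0.0085, limma). The helicase gene *inf-1*, for eIF4A, the third component of eIF4F, had a difference of -0.60 that did not pass (adjusted p = 0.106, limma).

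Of 37 further initiation factors 7 were named, all in the table of baicalein against DMSO. Of the 7, 42.9% were lower and 14.3% higher in baicalein than in DMSO, beside 37.9% and 8.84% of the genes named in that table. Between baicalein and water 5 were lower and 0 were higher, beside 15.4% and 18.3% of those genes. The eIF3 subunit genes *eif-3.I* (2.66-fold, adjusted p = 0.00977), *eif-3.C* (2.27-fold, adjusted p = 0.0142) and *eif-3.D* (2.01-fold, adjusted p = 0.0393) were lower in baicalein than in DMSO by limma. The gene *iff-2*, for the factor eIF5A, was higher (0.74, adjusted p = 0.0459, limma), and 3 did not pass. Its values were 8.18 and 8.26 in DMSO and 8.88 and 9.05 in baicalein. From water *iff-2* differed by -1.31 in DMSO (adjusted p = 0.00179, limma) and by -0.57 in baicalein (adjusted p = 0.0562, limma). The call of *iff-2* was made in 3 of 15 other settings, with an adjusted p of 0.172 after quantile normalization and 0.134 after cyclic loess. That of *eif-3.D* was made in 6 of 15, and its log2 difference was -0.56 after quantile normalization (adjusted p = 0.0757).

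In the AMPK list 3 of 15 genes were named, all in the table of baicalein against DMSO. Of these 2 were lower in baicalein than in DMSO, beside 37.9% of the genes named in that table. Between DMSO and water all 3 were higher, beside 38.9% of those genes. Besides *aak-1*, *mop-25.3*, a homolog of the scaffold MO25 that in mammals activates the AMPK kinase LKB1, was 7.22-fold lower in baicalein than in DMSO (log2 difference -2.85, adjusted p = 0.00533, limma). Its DMSO values of 5.47 and 5.07 stood far above the baicalein values of 2.59 and 2.25, and its water values were lower still, at 1.67 and 1.21, on either side of the median of all values. It was higher than water both in DMSO (adjusted p = 0.000112, limma) and in baicalein (adjusted p = 0.0339, limma). The pseudokinase gene *strd-1*, whose mammalian counterpart STRAD also binds LKB1, had a difference of -0.48 that did not pass (adjusted p = 0.137, limma). In DMSO *strd-1* was higher than in water (0.78, adjusted p = 0.0115, limma).

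**Figure D4:**
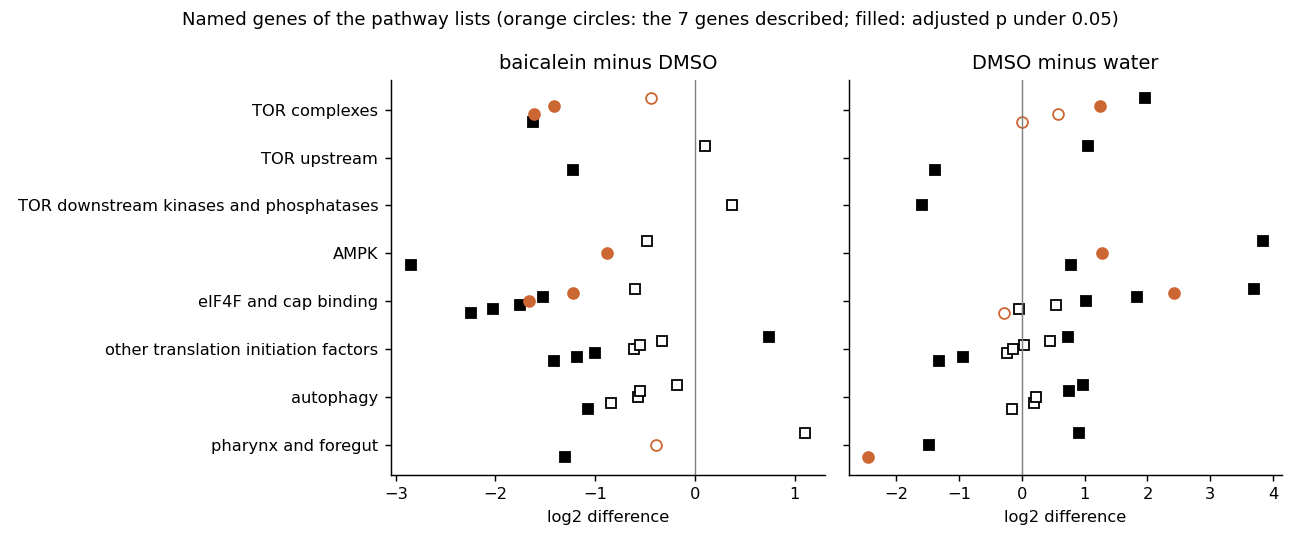
Log2 differences (horizontal axis) of the named genes of each pathway list (vertical axis) between baicalein and DMSO and between DMSO and water, each symbol 1 gene. Orange circles are the 7 genes, black squares the other list genes, and filled symbols had an adjusted p under 0.05. In the cap-binding list 6 of 7 symbols are filled and below 0 for baicalein minus DMSO. The signs of *let-363* and *pha-4* there turned under cyclic loess.

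The named genes whose values ran most like those of each gene over the 6 arrays were taken from 3263 candidates above the median of all values, and with 6 arrays in 3 groups such correlations are a description only. For *let-363* they were *inf-1* (Pearson r = 0.985), *dpy-21* (0.982) and *vps-16* (0.980). For *daf-15* they were *symk-1* (0.999), *ttll-12* (0.998) and *pgap-1* (0.997), and for *rict-1* they were *ndx-7* (0.999), *cpna-3* (0.998) and *pup-2* (0.998). The partners of *ife-3* were *F35C11.5* (0.9995), *C39E9.12* (0.999) and *got-2.1* (0.998), and those of *ifg-1* were *pat-3* (0.993), *set-16* (0.992) and *laat-1* (0.990). For *aak-1* they were *C32D5.10* (0.991), *D2096.11* (0.991) and *cdt-2* (0.989), and for *pha-4* they were *C30E1.9* (0.998), *F49E10.9* (0.996) and *mrp-1* (0.996). None of the 7 genes was among the nearest of another. Only *inf-1*, nearest to *let-363*, came from the pathway lists.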

How the data were processed

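Worms, groups and arrays were as described above. The authors deposited log2 values made with RMA, which corrects background and applies quantile normalization; which arrays were normalized together, and the annotation build, are not given in the sources used here. The upper quartiles differ between arrays, so further scalings were tried.

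The tables deposited by the authors for baicalein against DMSO (3619 entries) and DMSO against water (1982 entries) served for names only. Their p-value, the authors' unadjusted one, was read only to see that the tables stop at 0.05, and their ratios, fold changes and other test columns were not used. In the latter, commas had shifted 113 entries, which were realigned. Names were updated through RefSeq (WBcel235) by accession for 4300 probe sets and by symbol for 572, and kept as written for 85.

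The 6 arrays were fitted together by group with limma 3.58.1 in R 4.3.3 (3 residual degrees of freedom, prior 3.51), without filter. For each comparison the Benjamini-Hochberg adjustment covered all 29317 probe sets, with a call made under 0.05. The fit was also run on data simulated from its own model, which cannot check the assumptions of that model. Python 3.11.15 with pandas 2.3.3, numpy 2.4.6 and matplotlib 3.10.9 read the tables and drew the figures.

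Named are the 7 genes, up to 4 genes of each list with the smallest p between baicalein and DMSO, and the 3 nearest in correlation to each gene; genes given only as exceptions were named after their values were seen. A gene of several probe sets was represented by the one with the highest mean. Members and lists were chosen with earlier results of these data known. Alternatives were a variance trend, only the compared arrays, median centring, quantile and cyclic loess normalization, a filter on dim probe sets, the trial number as a block, the methods' analysis of variance and each array left out. The number of arrays limits the precision. Summed marker levels add values taken off the log scale.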

Additional observations from a re-analysis of the deposited data

How the results depend on the processing

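The count of 5 genes lower in baicalein than in DMSO was 2 with only the compared groups' arrays (3.57% of all probe sets) and 3 after quantile normalization (5.13%). It was 0 with an ordinary ANOVA after adjustment, which called 1 probe set lower in all (5 of the genes had an unadjusted p under 0.05). Unadjusted, *let-363* and *pha-4* did not pass that ANOVA, though both are in the authors' table of baicalein against DMSO, which stops at 0.05. The count also fell with single arrays left out. The count of 12 other pathway genes lower than in DMSO was 7 with only the compared arrays and 7 after quantile normalization. It was 0 with the adjusted ANOVA and 19 with the unadjusted one, which called 10.3% of all probe sets lower. As 23 of these 25 genes were named through the authors' table, which stops at an unadjusted 0.05, the count of 19 is no independent evidence. Between baicalein and water, 2 genes were higher after quantile normalization and 2 after cyclic loess, against 1, and 1 was lower, against 2, with the adjusted ANOVA. Signs turned for *let-363* (baicalein against DMSO 0.11 and 0.035 after quantile and cyclic loess; against water 0.29 and 0.033), for *rict-1* against water (0.34 and 0.074) and for *pha-4* against DMSO after cyclic loess (0.077). For *let-363* between DMSO and water the difference was -0.0022 after cyclic loess and ran from -0.078 to 0.083 with single arrays left out, and for *sesn-1* between baicalein and DMSO it ran from -0.42 to 0.63. The causes were not tested. Higher calls among all calls were 19.8% between baicalein and DMSO, 45.9% after quantile normalization and 42.5% after cyclic loess, and 30.6% between baicalein and water, 46.7% and 45.9% after the same scalings. Centring moved the median of all differences between DMSO and water from 0.09 to 0.20.

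With the trial number as a replicate block, 5 genes were again lower in baicalein than in DMSO, and of the other pathway genes 4, against 8, were lower in baicalein than in water and 0, against 1, were higher in baicalein than in DMSO. Deviations of same-numbered arrays correlated at -0.05 (water and DMSO), -0.07 (water and baicalein) and 0.16 (DMSO and baicalein), so the numbers were not taken to pair the samples.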

Other observations

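Of 29 autophagy genes, a process that TOR complex 1 holds back, 5 were named. In baicalein 1 was lower than in DMSO, beside 37.9% of the genes named in the table of that comparison. This was *atg-9*, for a membrane protein of the growing autophagosome, at 4.93 and 5.20 in DMSO and 3.96 and 4.03 in baicalein (log2 difference -1.07, adjusted p = 0.0211, limma). The call was made in 7 of 15 other settings, and the difference was -0.46 after quantile normalization (adjusted p = 0.379) and -0.64 after cyclic loess (adjusted p = 0.178). The others had differences from -0.84 (*epg-4*, adjusted p = 0.0690) to -0.18 and did not pass.

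Of 25 pharynx and foregut genes 3 were named, *pha-4* among them. The gene *mtm-6*, for a myotubularin-type lipid phosphatase, was lower in baicalein than in DMSO (-1.31, adjusted p = 0.0122, limma), a call made in 10 of 15 other settings, with a difference of -0.73 after quantile normalization. The pharyngeal myosin gene *myo-1* was at 2.56 and 2.89 in DMSO and 4.40 and 3.26 in baicalein, a 2.15-fold difference that did not pass (adjusted p = 0.165, limma). It did pass after quantile normalization (adjusted p = 0.0361), after cyclic loess (adjusted p = 0.0190) and without the second baicalein array (adjusted p = 0.0280).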
